A study of Rattus norvegicus with 9 samples.

Results

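This account follows the genes of fatty acid oxidation and the targets of the peroxisome proliferator-activated receptors (PPARs) in the outer medulla of the rat kidney. A list of 32 gene names was matched to the gene names of the expression table, ignoring case, and the locus with the higher mean was taken where a name stood in more than 1 row. Of the 30315 loci of the table, 30 carried a name of the list, and all 30 reached the minimum for testing, 1 FPKM on average over the 9 rats. FPKM gives sequenced fragments per unit of transcript length and library size, so levels can be compared between genes. The other 2 names, Cd36 and Acot1, stood only in loci that carry a second gene name as well, and their values are given apart from the 30.

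The tissue came from 9 salt-sensitive MCW SS rats, 3 in each group, with 1 library of total RNA per rat. HS_DT rats received GapmeRs, chemically modified antisense oligonucleotides that direct cleavage of their target RNA, against Dnmt3a, which methylates DNA de novo, and Tet3, which oxidises methylated cytosine. These were given into the kidney at 2 mg/kg each, with a diet of 4% NaCl for 7 days. HS_SCR rats received a scrambled GapmeR at 4 mg/kg by the same route and the same diet for 7 days. The 0.4% salt rats, on a diet of 0.4% NaCl, had the same surgical preparation and were collected at the time when GapmeR and high salt would have begun. HS_SCR and 0.4% salt rats therefore differ in diet, in the oligonucleotide and in time, and these cannot be told apart. Age and sex are not given in the labels.

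Fatty acids enter the cell through carriers such as Cd36, are bound by Fabp proteins and are activated to acyl-CoA by Acsl enzymes. The carnitine shuttle (Cpt1, Slc25a20, Cpt2) carries them into the mitochondrion, where acyl-CoA dehydrogenases, hydratases, hydroxyacyl-CoA dehydrogenases and thiolases shorten them step by step and the electron transfer flavoprotein passes the electrons on. Peroxisomes shorten the longest chains. Ppara and Ppard, nuclear receptors that pair with Rxra and are activated by fatty acids, raise the transcription of many of these genes. Tubules of the kidney, the proximal tubule and the thick ascending limb above all, draw much of their energy from fatty acids.

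The window from 250 bases before to 50 bases after the annotated start, taken from RefSeq on build GRCr8, was at hand for 25 of the 30 genes, in 26 windows since Plin2 has 2. Windows are shown for Ppara and Acsl1, which fell in HS_SCR rats, for Angptl4, which rose, and for Acadvl, which holds the AGGTCA core that nuclear receptors bind. Capitals mark that core, on either strand, and the GC box GGGCGG, which on the other strand reads CCGCCC.
Ppara (chr7:118712357-118712656, + strand, GRCr8): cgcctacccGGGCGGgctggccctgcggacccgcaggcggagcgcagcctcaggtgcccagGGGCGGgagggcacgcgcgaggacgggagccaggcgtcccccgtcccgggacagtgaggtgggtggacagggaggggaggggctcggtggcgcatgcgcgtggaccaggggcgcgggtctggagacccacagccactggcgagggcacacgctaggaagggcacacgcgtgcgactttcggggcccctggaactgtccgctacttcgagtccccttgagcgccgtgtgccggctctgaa
Acsl1 (chr16:52532343-52532642, - strand, GRCr8): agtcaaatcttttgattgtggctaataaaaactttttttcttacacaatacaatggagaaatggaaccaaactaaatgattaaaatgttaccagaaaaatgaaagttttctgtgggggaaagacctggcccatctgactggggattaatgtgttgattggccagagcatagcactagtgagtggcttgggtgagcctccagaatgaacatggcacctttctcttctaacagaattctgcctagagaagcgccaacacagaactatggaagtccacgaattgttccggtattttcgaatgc
Angptl4 (chr7:15258632-15258931, - strand, GRCr8): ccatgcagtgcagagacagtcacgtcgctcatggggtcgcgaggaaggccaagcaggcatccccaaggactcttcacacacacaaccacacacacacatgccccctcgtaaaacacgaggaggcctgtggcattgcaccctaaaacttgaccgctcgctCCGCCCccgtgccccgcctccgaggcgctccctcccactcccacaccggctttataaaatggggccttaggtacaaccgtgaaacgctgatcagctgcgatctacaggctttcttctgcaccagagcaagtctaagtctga
Acadvl (chr10:55236656-55236955, - strand, GRCr8): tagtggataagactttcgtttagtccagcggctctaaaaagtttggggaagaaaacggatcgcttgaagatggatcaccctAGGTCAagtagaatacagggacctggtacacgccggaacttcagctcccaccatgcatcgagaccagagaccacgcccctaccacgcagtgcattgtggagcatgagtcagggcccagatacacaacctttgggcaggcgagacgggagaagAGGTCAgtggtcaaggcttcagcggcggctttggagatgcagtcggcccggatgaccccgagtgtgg

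The Ppara window holds 2 GC boxes, the Angptl4 window 1 GC box, the Acadvl window 2 AGGTCA cores, and the Acsl1 window none of these letters. A perfect PPAR element, a direct repeat of the core spaced by 1 base (AGGTCANAGGTCA, both strands, any base at N), was in 0 of the 26 windows. It was in 18 of all 33469 windows (0.0538%), so its absence from 26 windows tells little. Repeats that differ from it in any letter were not counted, such as AGGTCAgtggtca in the Acadvl window. The core alone, which the perfect element contains, was in 5 of 26 windows (19.2%), against 16.2% of all windows. Those 5 were the windows of Echs1, Hadhb, Eci1, Acadvl and Eci2. The GC box was in 19 of 26 windows (73.1%), against 33.1% of all windows. These are matches of letters in a short window and say nothing of binding. Whether the annotated starts, that of Acsl1 among them, are those used in this tissue was not tested. A window may therefore miss the promoter in use.

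The 30 genes spanned more than 2 orders of magnitude in level. The heart-type fatty acid binding protein Fabp3 was the most abundant, with a mean of 284 FPKM over the 9 libraries, ahead of Etfb (164 FPKM), Hadha (109.8 FPKM), Acadm (109 FPKM) and Etfa (109 FPKM). Hadha, Acadm and Etfa did not differ beyond the spread between rats. The lowest were Echs1 (1.46 FPKM), Ppara (3.19 FPKM), Pdk4 (5.80 FPKM) and Ehhadh (5.88 FPKM). Ppard, at 13.2 FPKM, and Rxra, at 20.5 FPKM, stood above Ppara in each of the 9 rats. The levels were fairly steady across rats. The coefficient of variation over the 9 libraries had a median of 12.9% over the 30 genes, against 16.99% over all 14338 loci tested. It was under 15% for 18 of the 30 and for 5982 of the 14338 loci. The loci were not matched to the 30 genes in level. Ehhadh varied most (63.2%) and Eci2 least (6.42%).

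**Figure D1:**
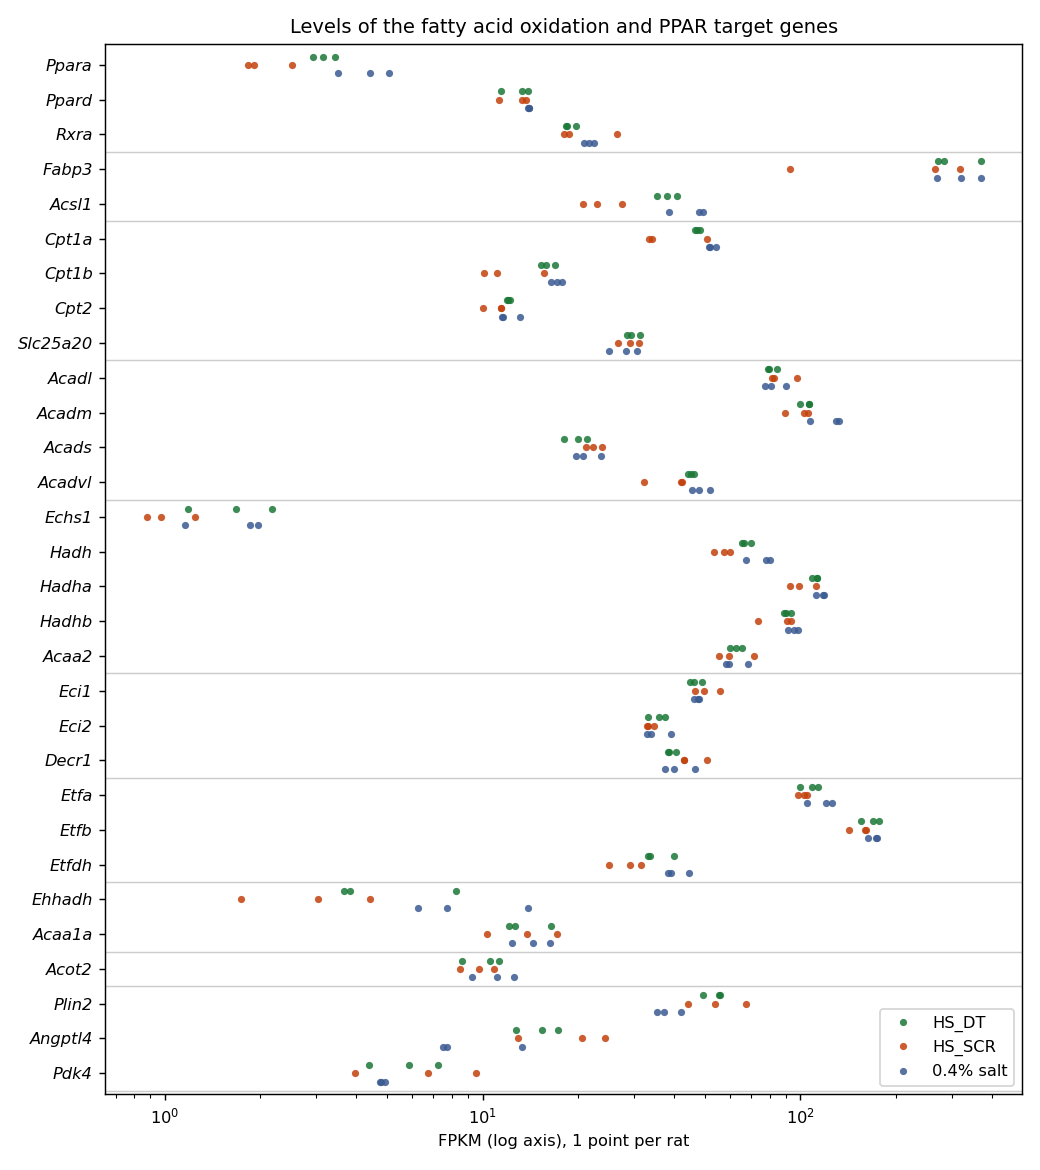
FPKM of each of the 30 genes (log axis) in each rat, with genes grouped by role between grey lines; each point is 1 rat, coloured by group. Fabp3 and the electron transfer flavoprotein subunits lie at the right, Ppara and Echs1 at the left, and the HS_SCR points of Ppara, Acsl1 and Hadh lie left of those of the other groups.

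Some facts of the libraries bear on all that follows. Dnmt3a, the first GapmeR target, had 8.72, 10.2 and 11.02 FPKM in HS_DT rats, 7.05, 5.75 and 10.3 FPKM in HS_SCR rats and 13.4, 12.2 and 12.9 FPKM in 0.4% salt rats. Tet3, the second, had 7.62, 8.54 and 7.92 FPKM in HS_DT rats, 5.04, 5.47 and 8.20 FPKM in HS_SCR rats and 9.38, 8.47 and 9.64 FPKM in 0.4% salt rats. The log2 difference in HS_DT against HS_SCR rats was 0.37 ± 0.18 (limma adjusted p = 0.303) for Dnmt3a and 0.34 ± 0.15 (limma adjusted p = 0.271) for Tet3. Neither target was lower in the rats labelled HS_DT, so HS_DT and HS_SCR stand here for the labels alone. Markers of the proximal tubule summed to 614 to 2530 FPKM in HS_DT, 162 to 875 FPKM in HS_SCR and 1460 to 3775 FPKM in 0.4% salt rats (19 of 20 markers found, of which Slc5a12 stayed below 1 FPKM in each library). The 12 thick ascending limb markers, all found, summed to 2681 to 3684 FPKM in HS_DT, 1322 to 3418 FPKM in HS_SCR and 3050 to 4807 FPKM in 0.4% salt rats, with Slc12a1 and Umod, which define that segment, abundant in each library. HS_SCR replicate 3 stood apart from the other libraries, with the lowest mitochondrial share of summed FPKM (20.6%, against 25.4% to 31.9% elsewhere). Depth is unknown, as the table holds no counts; a relative depth estimated from the lowest loci ran from 0.761 to 1.37 with 0.4% salt replicate 1 as 1. In bulk tissue, fewer cells of a type and less RNA per cell cannot be told apart.

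High salt with the scrambled GapmeR was set against the 0.4% salt state. In HS_SCR rats the receptor Ppara and the activating enzyme Acsl1 fell to 48.2% and 52.2% of their 0.4% salt means, and Hadh and Etfdh fell to 75.7% and 70.2% of theirs. Angptl4, a secreted inhibitor of lipoprotein lipase and a classical PPAR target, rose, to 203% of its 0.4% salt mean. The other 25 genes did not pass the test, among them each of the 4 genes of the carnitine shuttle and each of the 4 acyl-CoA dehydrogenases. In all, 4 of 30 were called lower and 1 higher, or 16.7%, by limma at an adjusted p under 0.05, against 13.1% of all loci tested (8.20% higher and 4.88% lower). The share called is thus near that of all loci. The split of calls moved with the scaling: 10 were lower and 0 higher under quantile normalization, where 11% of all loci passed (4.70% lower), and 6 lower and 0 higher under median-ratio rescaling, where 12.3% passed (5.90% lower). The means of 22 of the 30 were lower in HS_SCR rats, with a median log2 change of -0.15 over the 30 and 0.02 over all loci. The FPKM ranges of the 2 groups did not overlap for 13 genes lower and 1 higher in HS_SCR rats, and for 33.5% of all loci (19.1% higher, 14.5% lower). Changes here are differences of log2(FPKM + 1), with the standard error after the ± sign, and understate those of low genes such as Ppara.

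**Figure D2:**
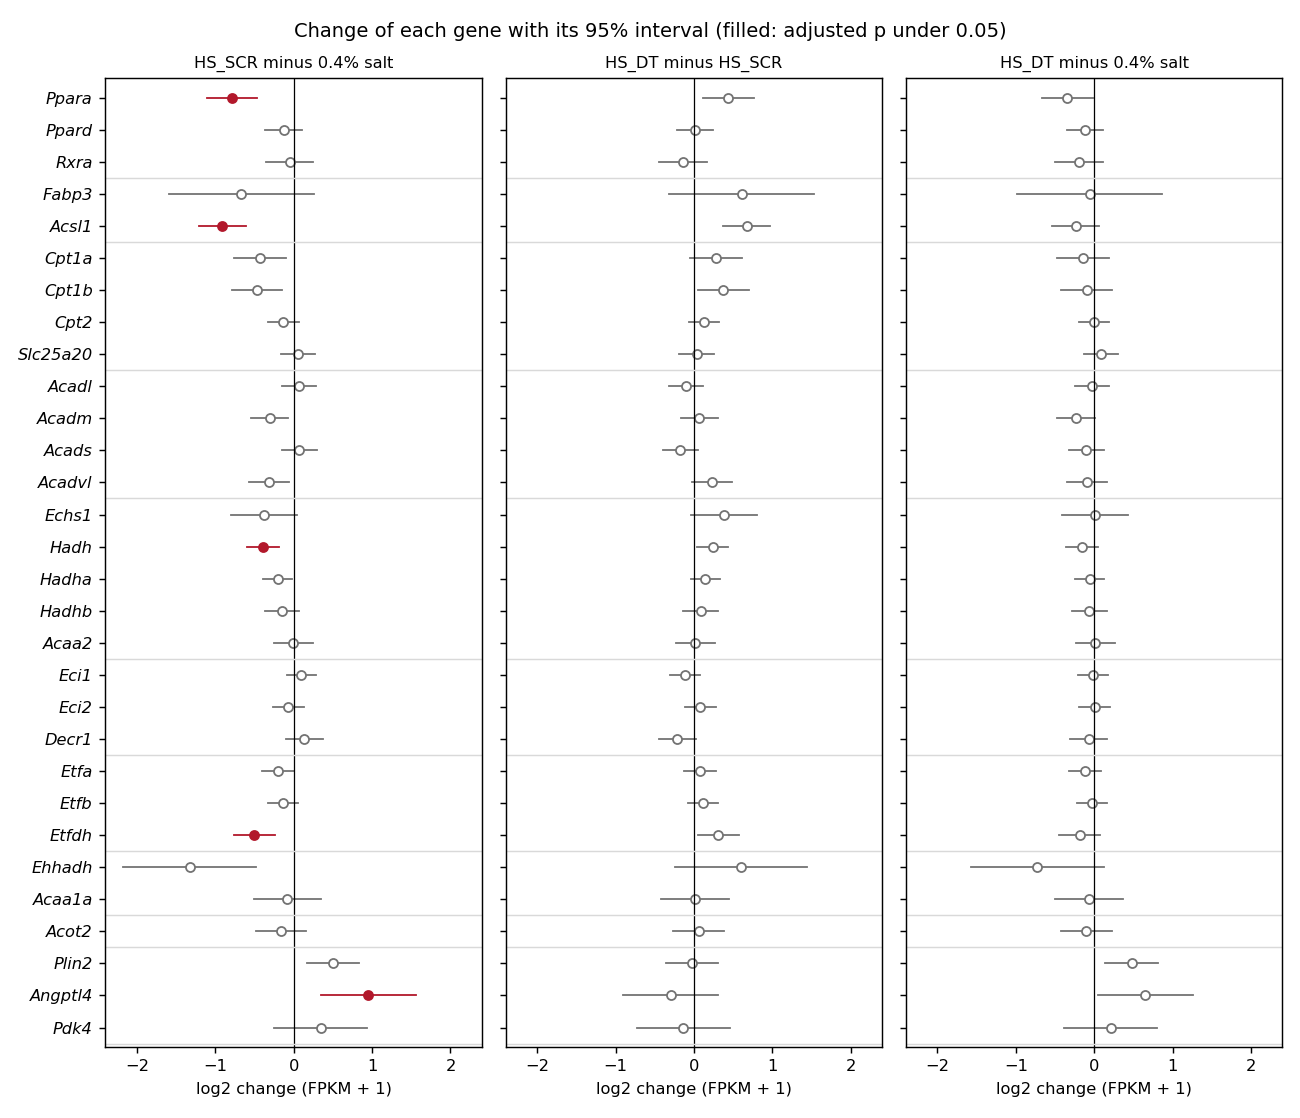
Log2 change of each of the 30 genes with its 95% interval in the 3 comparisons (panels), from a limma fit of log2(FPKM + 1); filled red points passed an adjusted p of 0.05 over all loci. HS_SCR minus 0.4% salt has 5 filled points, Ppara, Acsl1, Hadh and Etfdh to the left and Angptl4 to the right, and the other panels have none; each group enters 2 panels, so the panels share rats.

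Among the receptors, Ppara (chr7:126330523-126402811 on build rn5, as are all positions from here on) had 2.93, 3.43 and 3.14 FPKM in HS_DT rats, 1.91, 1.82 and 2.51 FPKM in HS_SCR rats and 4.41, 5.06 and 3.50 FPKM in 0.4% salt rats. Each HS_SCR rat was below each 0.4% salt rat and each HS_DT rat, and the HS_DT rats were below the 0.4% salt rats. The change in HS_SCR against 0.4% salt rats was -0.78 ± 0.14 (limma adjusted p = 0.0137). It was -0.77 without 0.4% salt replicate 1 and -0.69 without 0.4% salt replicate 2, and neither passed (limma adjusted p = 0.0578 and 0.0615).

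Ppard, the more broadly expressed receptor, had 13.88, 13.29 and 11.40 FPKM in HS_DT rats, 13.74, 13.30 and 11.24 FPKM in HS_SCR rats and 14.02, 14.02 and 13.94 FPKM in 0.4% salt rats. The 0.4% salt values were nearly equal and lay just above the other groups, and the change in HS_SCR against 0.4% salt rats did not pass (-0.13, 95% interval -0.36 to 0.10). Rxra, the shared partner of the receptors, had 18.3, 19.6 and 18.5 FPKM in HS_DT rats, 18.1, 18.8 and 26.5 FPKM in HS_SCR rats and 22.4, 20.8 and 21.7 FPKM in 0.4% salt rats. HS_SCR replicate 3 was the highest of the 9 rats for Rxra, while the other HS_SCR rats were below each 0.4% salt rat; the change was -0.05 with the 3 HS_SCR rats and -0.22 without replicate 3 (limma adjusted p = 0.815 and 0.0328). Without that library 36.2% of all loci passed in this comparison, against 13.1% with it. The HS_SCR rats then left also differ from all 0.4% salt rats in the series of their rat numbers, described below.

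In uptake, binding and activation, Acsl1 (chr16:48652975-48719270), which joins long-chain fatty acids to coenzyme A, gave the firmest change of the 30. It had 41.0, 38.0 and 35.3 FPKM in HS_DT rats, 27.4, 22.9 and 20.7 FPKM in HS_SCR rats and 48.0, 49.5 and 38.5 FPKM in 0.4% salt rats. No HS_SCR rat reached a rat of the other groups, while HS_DT and 0.4% salt rats overlapped. Against 0.4% salt rats the HS_SCR change was -0.91 ± 0.13 (limma adjusted p = 0.00741), and it passed whichever library was left out. Fabp3, the carrier protein of fatty acids in the cytosol, averaged 308 ± 54.1 FPKM in HS_DT rats, 226 ± 118 FPKM in HS_SCR rats and 319 ± 50.4 FPKM in 0.4% salt rats (SD, n = 3 each). Its wide HS_SCR spread came with HS_SCR replicate 3, at 92.7 FPKM the lowest of the 9 rats, and its change did not pass (-0.67, 95% interval -1.59 to 0.26).

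The fatty acid carrier Cd36 could be read only from a locus that also carries a second name, RGD1565355. That locus had 23.4, 19.8 and 20.7 FPKM in HS_DT rats, 8.84, 20.3 and 35.4 FPKM in HS_SCR rats and 24.1, 22.7 and 20.3 FPKM in 0.4% salt rats. The HS_SCR rats lay at both ends of the 9 values and the groups overlapped. No comparison passed, and the interval for HS_SCR minus 0.4% salt, -1.12 to 0.64, leaves a change of either sign possible.

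In the carnitine shuttle, Cpt1a, the outer-membrane transferase that controls entry, had 47.1, 48.2 and 46.8 FPKM in HS_DT rats, 33.4, 34.2 and 50.7 FPKM in HS_SCR rats and 51.6, 54.1 and 51.9 FPKM in 0.4% salt rats. HS_SCR replicates 1 and 2 were well below the other 7 rats, and HS_SCR replicate 3 lay among those 7, above the HS_DT and below the 0.4% salt rats. The change in HS_SCR against 0.4% salt rats was -0.43 ± 0.14 (limma adjusted p = 0.0820) with all rats. It was -0.62 without HS_SCR replicate 3 (limma adjusted p = 0.00139), where 36.2% of all loci passed. Cpt1b, the form known from muscle, averaged 15.96 ± 0.820 FPKM in HS_DT rats, 12.3 ± 2.94 FPKM in HS_SCR rats and 17.1 ± 0.699 FPKM in 0.4% salt rats (SD, n = 3 each). Its change of -0.47 ± 0.14 (limma adjusted p = 0.0607) did not pass with all rats and passed without HS_SCR replicate 1, at -0.64 (limma adjusted p = 0.0108), where 10.9% of all loci passed.

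Cpt2, which releases the acyl group inside the mitochondrion, had 12.2, 11.99 and 11.9 FPKM in HS_DT rats, 9.999, 11.4 and 11.4 FPKM in HS_SCR rats and 11.6, 13.1 and 11.5 FPKM in 0.4% salt rats. HS_SCR rats were below 0.4% salt rats by a narrow margin, and the change of -0.13 did not pass (95% interval -0.33 to 0.07). The carrier Slc25a20 averaged 29.7 ± 1.39 FPKM in HS_DT rats, 29.0 ± 2.204 FPKM in HS_SCR rats and 27.9 ± 2.83 FPKM in 0.4% salt rats (SD, n = 3 each), with overlapping groups.

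Of the acyl-CoA dehydrogenases, which take the first step of each round, Acadm (medium chains) had 107, 99.5 and 106 FPKM in HS_DT rats, 106, 103 and 89.4 FPKM in HS_SCR rats and 129, 132 and 108 FPKM in 0.4% salt rats. The 0.4% salt rats were above each rat of the other groups, and HS_DT and HS_SCR rats overlapped. Its change in HS_SCR against 0.4% salt rats was -0.30 ± 0.10 (limma adjusted p = 0.0867) and did not pass. Acadvl (very long chains) had 46.3, 44.4 and 45.4 FPKM in HS_DT rats, 42.1, 42.5 and 32.3 FPKM in HS_SCR rats and 48.1, 52.1 and 45.5 FPKM in 0.4% salt rats. HS_SCR rats were below all others, HS_SCR replicate 3 most, and the change of -0.32 ± 0.11 (limma adjusted p = 0.0916) did not pass either. Acadl, for long chains, averaged 81.1 ± 2.93 FPKM in HS_DT rats, 87.2 ± 8.97 FPKM in HS_SCR rats and 82.7 ± 6.47 FPKM in 0.4% salt rats, and Acads, for short chains, averaged 19.8 ± 1.58 FPKM in HS_DT rats, 22.4 ± 1.30 FPKM in HS_SCR rats and 21.3 ± 2.06 FPKM in 0.4% salt rats (SD, n = 3 each). Both had slightly higher HS_SCR than 0.4% salt means, within the spread between rats.

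At the later steps, Hadh (chr2:254902126-254944048), the hydroxyacyl-CoA dehydrogenase of medium and short chains, had 70.05, 65.7 and 66.6 FPKM in HS_DT rats, 60.2, 53.4 and 57.7 FPKM in HS_SCR rats and 78.1, 80.5 and 67.6 FPKM in 0.4% salt rats. The HS_SCR rats were below all others, and HS_DT and 0.4% salt rats overlapped. Against 0.4% salt rats, Hadh changed by -0.39 ± 0.09 (limma adjusted p = 0.0259) in HS_SCR rats. It missed the threshold when HS_DT replicate 2, HS_SCR replicate 2, 0.4% salt replicate 1 or 0.4% salt replicate 2 was left out, with values of -0.39, -0.35, -0.37 and -0.34.

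Hadha, the subunit of the mitochondrial trifunctional protein with hydratase and dehydrogenase activity, had 113, 113 and 109 FPKM in HS_DT rats, 112, 99.2 and 92.9 FPKM in HS_SCR rats and 119, 118 and 112 FPKM in 0.4% salt rats. The 0.4% salt rats were all above the HS_SCR rats, though by little (the closest were 111.6 FPKM in HS_SCR replicate 1 and 112.2 FPKM in 0.4% salt replicate 3), and the difference of -0.20 ± 0.08 (limma adjusted p = 0.129) did not pass. Its partner Hadhb, the thiolase subunit encoded next to it, averaged 90.8 ± 2.14 FPKM in HS_DT rats, 86.0 ± 10.6 FPKM in HS_SCR rats and 95.05 ± 3.60 FPKM in 0.4% salt rats (SD, n = 3 each), with a change of -0.15 that did not pass. The thiolase Acaa2 averaged 62.7 ± 2.77 FPKM in HS_DT rats, 62.2 ± 8.33 FPKM in HS_SCR rats and 62.2 ± 5.63 FPKM in 0.4% salt rats (SD, n = 3 each) and showed the smallest difference of the 30, -0.003 (95% interval -0.25 to 0.25). Echs1, the short-chain hydratase, was read from a low locus that averaged 1.68 ± 0.494 FPKM in HS_DT rats, 1.03 ± 0.188 FPKM in HS_SCR rats and 1.66 ± 0.439 FPKM in 0.4% salt rats (SD, n = 3 each) and did not pass. A second row of that name, with a mean of 0.104 FPKM, was not used, and how well the used row stands for the gene was not tested.

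None of the 3 enzymes for unsaturated chains passed. Decr1, the dienoyl-CoA reductase, averaged 39.2 ± 1.28 FPKM in HS_DT rats, 45.6 ± 4.53 FPKM in HS_SCR rats and 41.4 ± 4.71 FPKM in 0.4% salt rats (SD, n = 3 each), with a log2 difference in HS_SCR against 0.4% salt rats of 0.14. The isomerase Eci1 averaged 46.7 ± 2.11 FPKM in HS_DT rats, 50.7 ± 4.61 FPKM in HS_SCR rats and 47.2 ± 0.927 FPKM in 0.4% salt rats (SD, n = 3 each), a difference of 0.10 in that comparison. Its relative Eci2 averaged 35.5 ± 2.08 FPKM in HS_DT rats, 33.5 ± 0.940 FPKM in HS_SCR rats and 35.4 ± 3.34 FPKM in 0.4% salt rats (SD, n = 3 each), a difference of -0.07.

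The electron transfer flavoprotein takes electrons from each acyl-CoA dehydrogenase, and Etfdh (chr2:197690239-197725117) passes them to ubiquinone. Etfdh had 33.8, 33.3 and 40.00 FPKM in HS_DT rats, 29.1, 31.5 and 25.1 FPKM in HS_SCR rats and 39.1, 44.7 and 38.3 FPKM in 0.4% salt rats. HS_SCR rats were below all others, and HS_DT replicate 3 overlapped with the 0.4% salt rats. The change in HS_SCR against 0.4% salt rats was -0.50 ± 0.11 (limma adjusted p = 0.0274). It missed the threshold without any 1 of the 0.4% salt rats, with values of -0.53, -0.43 and -0.54 (limma adjusted p from 0.0543 to 0.109). The flavoprotein subunit Etfa averaged 108 ± 6.70 FPKM in HS_DT rats, 102 ± 3.51 FPKM in HS_SCR rats and 117 ± 10.9 FPKM in 0.4% salt rats, and its partner Etfb averaged 167 ± 10.6 FPKM in HS_DT rats, 154 ± 10.3 FPKM in HS_SCR rats and 169.9 ± 6.34 FPKM in 0.4% salt rats (SD, n = 3 each). Their differences in that comparison, -0.19 for Etfa and -0.14 for Etfb, did not pass.

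Of the peroxisomal enzymes, Ehhadh, the bifunctional hydratase and dehydrogenase of peroxisomes, had 3.83, 3.67 and 8.25 FPKM in HS_DT rats, 1.74, 4.44 and 3.04 FPKM in HS_SCR rats and 7.73, 13.9 and 6.26 FPKM in 0.4% salt rats. HS_SCR rats were all below 0.4% salt rats, and 0.4% salt replicate 2 was far above its group. Its log2 change of -1.33 ± 0.37 was the largest of the 30 in size and lay just outside the threshold (limma adjusted p = 0.05004). It passed without HS_DT replicate 3 (limma adjusted p = 0.0424, where 11% of all loci passed) and without HS_SCR replicate 3 (limma adjusted p = 0.0467, where 36.2% passed). The thiolase Acaa1a averaged 13.7 ± 2.32 FPKM in HS_DT rats, 13.7 ± 3.40 FPKM in HS_SCR rats and 14.4 ± 1.96 FPKM in 0.4% salt rats, and the mitochondrial thioesterase Acot2, which splits acyl-CoA, averaged 10.2 ± 1.39 FPKM in HS_DT rats, 9.70 ± 1.19 FPKM in HS_SCR rats and 10.99 ± 1.66 FPKM in 0.4% salt rats (SD, n = 3 each). Neither passed. A locus named for Acot1 and Acot3 averaged 13.7 ± 2.76 FPKM in HS_DT rats, 11.2 ± 1.75 FPKM in HS_SCR rats and 14.7 ± 2.01 FPKM in 0.4% salt rats (SD, n = 3 each), with a change in HS_SCR against 0.4% salt rats of -0.37 that did not pass; these thioesterases are close copies, and reads could have been split between them.

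The means of the 3 lipid droplet and fuel switch targets were higher in HS_SCR than in 0.4% salt rats, and only Angptl4 passed. Angptl4 (chr7:18805412-18812764) had 17.3, 15.3 and 12.8 FPKM in HS_DT rats, 20.6, 24.3 and 12.9 FPKM in HS_SCR rats and 7.71, 7.48 and 13.3 FPKM in 0.4% salt rats. HS_SCR replicates 1 and 2 were the highest of the 9 rats, but HS_SCR replicate 3 and 0.4% salt replicate 3 were about equal, so the groups overlapped. Against 0.4% salt rats, Angptl4 rose by 0.95 ± 0.26 (limma adjusted p = 0.0493) in HS_SCR rats, barely past the threshold. It missed the threshold with no filter on low values, under median-ratio rescaling and under quantile normalization (limma adjusted p = 0.0739, 0.0559 and 0.0566). It no longer passed when any 1 of 7 libraries was left out, at values of 0.77 (without HS_SCR replicate 2) to 0.95 (without HS_DT replicate 1, 2 or 3). The others of the 7 were HS_SCR replicate 1 (0.88), 0.4% salt replicate 1 (0.84) and 0.4% salt replicate 2 (0.82).

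Plin2, the coat protein of lipid droplets, had 55.3, 56.0 and 49.2 FPKM in HS_DT rats, 67.3, 54.1 and 44.2 FPKM in HS_SCR rats and 35.5, 37.1 and 42.1 FPKM in 0.4% salt rats. Each HS_SCR rat and each HS_DT rat was above each 0.4% salt rat. The change in HS_SCR against 0.4% salt rats was 0.50 ± 0.15 (limma adjusted p = 0.0557) and did not pass. Without HS_SCR replicate 3 it was 0.65 and passed (limma adjusted p = 0.00623), as did 36.2% of all loci. Pdk4, the kinase that turns off pyruvate dehydrogenase when fatty acids are burnt, had 4.38, 7.23 and 5.88 FPKM in HS_DT rats, 3.96, 9.55 and 6.72 FPKM in HS_SCR rats and 4.77, 4.94 and 4.75 FPKM in 0.4% salt rats. The 0.4% salt rats were within a narrow band, the HS_SCR rats lay on both sides of it, and the change of 0.34 did not pass (95% interval -0.25 to 0.94).

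**Figure D3:**
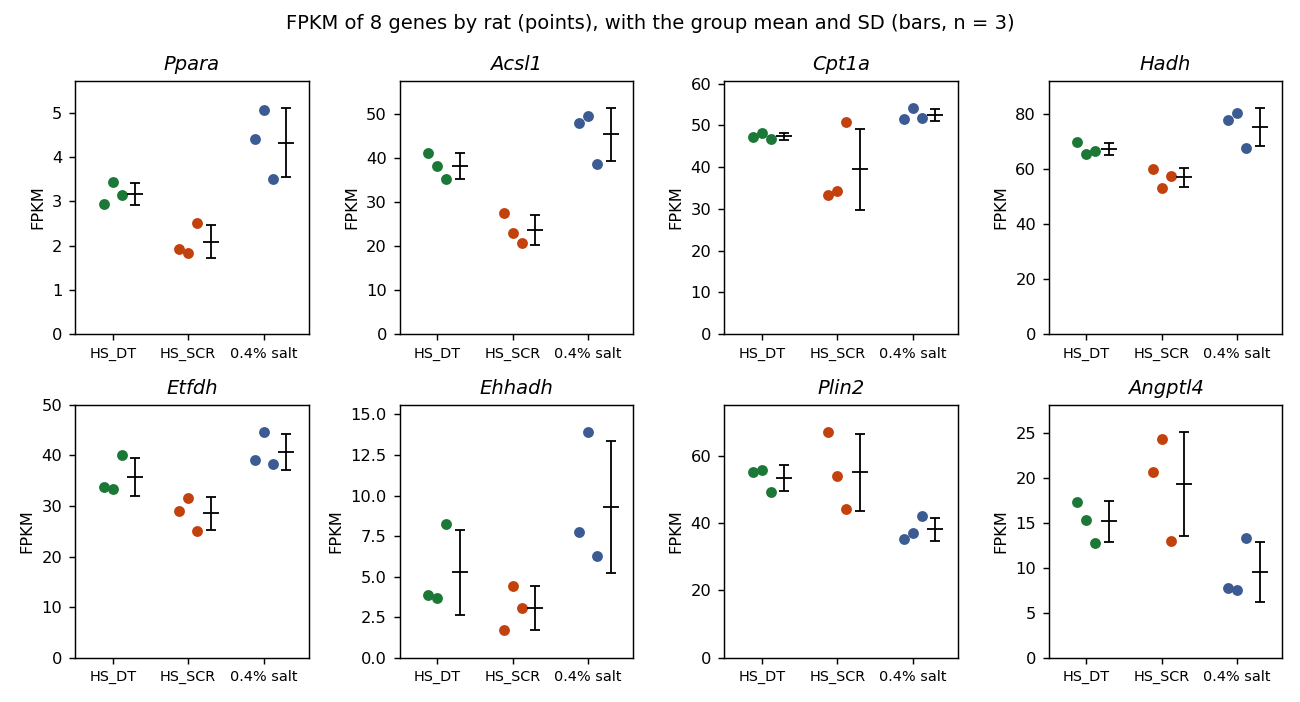
FPKM of 8 genes in each rat (points, linear axis from 0), with the mean and SD of each group of 3 to the right of its points. HS_SCR lies lowest for Ppara, Acsl1, Hadh and Etfdh, 1 HS_SCR rat of Cpt1a (50.7 FPKM) and 1 0.4% salt rat of Ehhadh (13.9 FPKM) stand away from their groups, and 0.4% salt lies lowest for Plin2.

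Adipocyte markers were checked because Plin2 and Angptl4 are also fat cell genes. Plin1 and Lep were below 1 FPKM in each library. The 5 tested were Fabp4, Cfd, Adipoq, Lipe and Cidea, with means over the 9 libraries of 132, 27.85, 15.8, 5.78 and 2.89 FPKM. The 8 markers summed to 146 to 183 FPKM in HS_DT, 194 to 249 FPKM in HS_SCR and 136 to 177 FPKM in 0.4% salt rats. Fabp4 made up much of these sums. The means of all 5 tested were higher in HS_SCR than in 0.4% salt rats, and Cfd alone was called higher. Macrophage markers, since macrophages also make Plin2, summed to 2920 to 3445 FPKM in HS_DT, 3070 to 4502 FPKM in HS_SCR and 1795 to 2082 FPKM in 0.4% salt rats. All 12 tested had higher means in HS_SCR than in 0.4% salt rats, and 8 were called higher (8.20% of all loci were). All 5 erythroid markers tested and 2 of 10 endothelial markers were called higher in HS_SCR rats, and none of 7 principal cell markers passed. The part of these cell types in the changes of Plin2 and Angptl4 was not tested.

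The proximal tubule markers moved with several of these genes. All 17 tested had lower means in HS_SCR than in 0.4% salt rats, with a median log2 change of -2.90, and 8 were called lower. The 12 thick ascending limb markers also all had lower means, with a median of -0.86, and 4 were called lower. Of all loci, 4.88% were called lower. The proximal tubule score of a library was the mean of log2(FPKM + 1) over the 19 proximal tubule markers found, tested or not. It was 3.87, 4.20 and 5.98 in HS_DT, 2.24, 4.27 and 2.74 in HS_SCR and 5.10, 6.46 and 5.36 in 0.4% salt rats. HS_DT replicate 3 and 0.4% salt replicate 2 were highest in their groups.

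Of the 30 genes, 12 (40.0%) were highest of their group in both of those libraries, against 18.7% of all loci. Ehhadh stood out: HS_DT replicate 3 exceeded the mean of its group mates by 0.96 and 0.4% salt replicate 2 by 0.91 on the log2 scale, and it was the only 1 of the 30 past 0.5 in either library. Each HS_SCR rat had a lower score (2.24 to 4.27) than each 0.4% salt rat (5.10 to 6.46). A fit with the score therefore cannot tell score and group apart between these 2 groups. With the score added to the fit, the HS_SCR against 0.4% salt change of Ehhadh was -0.04, against -1.33 without the score. That of Etfdh was -0.20, against -0.50. In the same fit it was -1.03 for Acsl1, -0.75 for Ppara, -0.45 for Hadh and 0.86 for Angptl4, against -0.91, -0.78, -0.39 and 0.95 for these genes without the score. None of the 30 passed in that fit, in which 0% of all loci passed, and the smallest adjusted p among these genes was 0.151 for Acsl1. Without both libraries, 0% of all loci passed too, with a change of -0.84 for Acsl1, -0.69 for Ppara and -1.02 for Ehhadh.

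**Figure D4:**
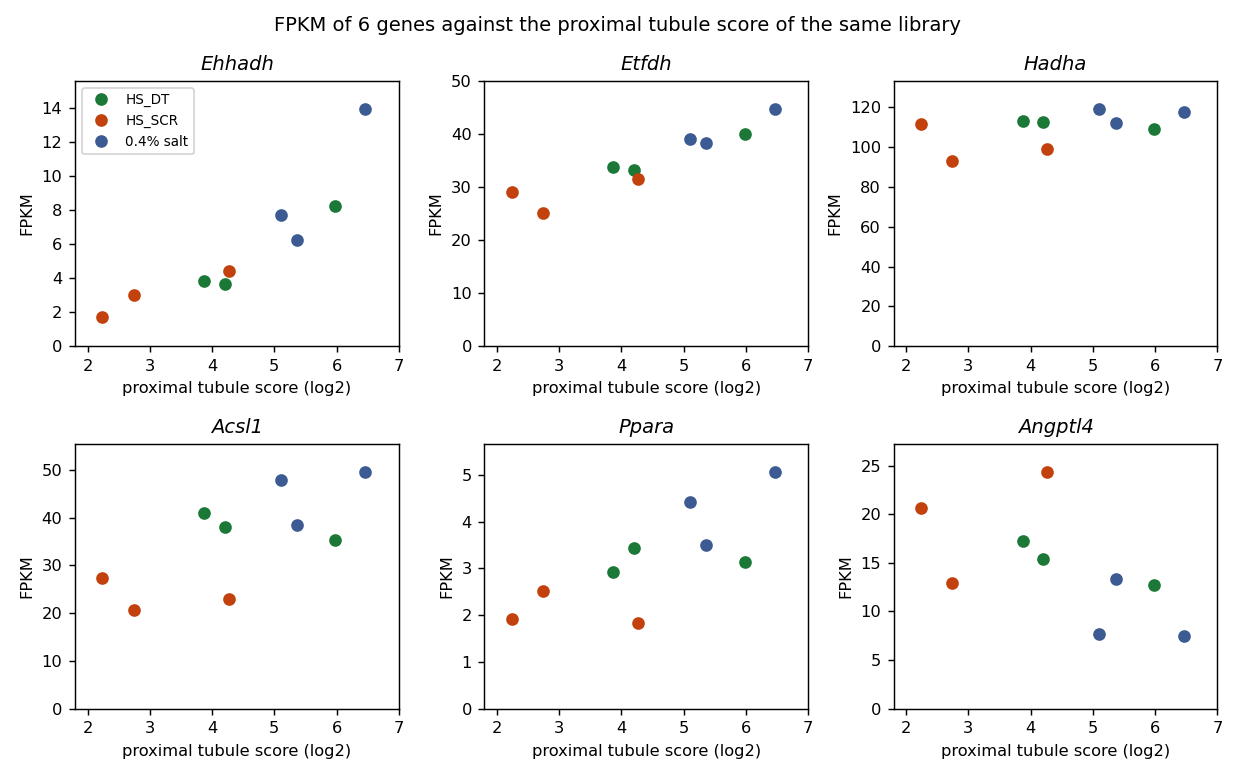
FPKM of 6 genes (vertical, linear axis from 0) against the proximal tubule score of the same library (horizontal, mean log2 value of the markers), with 1 point per rat coloured by group. Ehhadh and Etfdh climb with the score across the groups, Hadha lies between 92.9 and 119 FPKM, and the 3 HS_SCR rats of Acsl1 lie at 20.7 to 27.4 FPKM, at scores of 2.24 to 4.27.

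The rat numbers in the labels fall into a lower and a higher series. HS_DT replicates 1 and 2 and HS_SCR replicates 1 and 2 have lower numbers, and all 0.4% salt rats, HS_DT replicate 3 and HS_SCR replicate 3 have higher ones. Without HS_SCR replicate 3, the HS_SCR rats left are all of the lower series and the 0.4% salt rats all of the higher. A fit without that library therefore cannot tell group and series apart between HS_SCR and 0.4% salt rats. Within the higher series, HS_SCR replicate 3 differed from the mean of the 0.4% salt rats by -1.09 for Acsl1, -0.59 for Ppara, -0.38 for Hadh, -0.67 for Etfdh and 0.45 for Angptl4. For genes given above as passing without HS_SCR replicate 3, that difference was -0.05 for Cpt1a, 0.28 for Rxra, 0.21 for Plin2 and -1.28 for Ehhadh. With the series as a factor, Acsl1 (-1.05) and Ppara (-0.69) passed, and Hadh (-0.39), Etfdh (-0.50) and Angptl4 (0.59) did not; 9.20% of all loci passed in that fit.

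HS_DT rats were set against HS_SCR rats to compare the GapmeRs against Dnmt3a and Tet3 with the scrambled one under the same diet. None of the 30 genes passed, against 0.00697% of all loci (1 locus). At an unadjusted limma p under 0.05 there were 5 genes of the 30 (Acsl1, Ppara, Etfdh, Hadh and Cpt1b), against 19.1% of all loci. The means of 22 of the 30 were higher in HS_DT rats, with a median log2 change of 0.08, against -0.002 over all loci. The FPKM ranges did not overlap for 6 genes higher in HS_DT rats (Acsl1, Ppara, Etfdh, Hadh, Acadvl and Cpt2) and 1 lower (Decr1), and for 21.6% of all loci (9.10% higher, 12.5% lower). This comparison shares the HS_SCR rats with the one before, so a low HS_SCR value moves both.

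Acsl1 came nearest, at 161% of the HS_SCR mean in HS_DT rats, a log2 change of 0.67 ± 0.13 (limma adjusted p = 0.0646) with a 95% interval of 0.37 to 0.97. Ppara was at 152% of the HS_SCR mean, a change of 0.44 ± 0.14 (limma adjusted p = 0.162). Etfdh differed by 0.31 ± 0.11 (limma adjusted p = 0.194), Hadh by 0.24 ± 0.09 (limma adjusted p = 0.198) and Cpt1b by 0.37 ± 0.14 (limma adjusted p = 0.206). With the series of rat numbers as a factor Acsl1 passed, at 0.67 (limma adjusted p = 0.0410), where 2.94% of all loci passed. Within the lower series of rat numbers the Acsl1 difference was 0.64 (2 rats against 2) and within the higher series 0.74 (1 against 1); for Ppara it was 0.54 and 0.24, and for Etfdh 0.14 and 0.65. Markers of the proximal tubule were higher in HS_DT than in HS_SCR rats by a median of 1.77, with none of 17 passing. In a fit that held that score, in which 0% of all loci passed, the difference was 0.74 for Acsl1, 0.42 for Ppara, 0.28 for Hadh, 0.54 for Cpt1b and 0.12 for Etfdh. That of Ehhadh was -0.20 with the score and 0.60 without it.

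HS_SCR replicate 3 decided several of these values. Without it, Cpt1a (0.48, limma adjusted p = 0.0125), Acsl1 (0.58, limma adjusted p = 0.0270) and Ppara (0.54, limma adjusted p = 0.0378) were higher in HS_DT rats, but 16% of all loci passed then as well. Without HS_SCR replicate 1, Acsl1 (0.78) and Cpt1b (0.55) passed, against 1.26% of all loci. HS_SCR replicate 3 was at an end of the 9 rats for 14 of the 30 genes (46.7%; highest for 5 and lowest for 9), against 47.2% of all loci.

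The lipid droplet and fuel switch targets did not pass in this comparison. Plin2 differed by -0.03 (95% interval -0.36 to 0.31), Angptl4 by -0.30 (-0.90 to 0.31) and Pdk4 by -0.14 (-0.73 to 0.45). The widest intervals among the others were those of Fabp3 (-0.31 to 1.54) and Ehhadh (-0.25 to 1.45), so sizeable changes of these remain possible. Narrow intervals that held 0 included those of Eci2 (-0.12 to 0.28), Slc25a20 (-0.19 to 0.25), Ppard (-0.22 to 0.24) and Acaa2 (-0.23 to 0.27).

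HS_DT rats were last set against 0.4% salt rats, a contrast that holds the diet, the GapmeRs and time. None of the 30 genes passed, and 0% of all loci did; at an unadjusted limma p under 0.05 there were 3 of the 30 (Ppara, Plin2 and Angptl4), against 7.49% of all loci. The means of 23 of the 30 were lower in HS_DT rats, with a median log2 change of -0.07, against 0.006 over all loci. FPKM ranges did not overlap for 5 genes lower in HS_DT rats (Ppara, Ppard, Rxra, Cpt1a and Acadm) and 1 higher (Plin2), and for 23.8% of all loci (14.2% higher, 9.64% lower). Of the 3 receptor genes among these 5, Ppard differed by -0.12 (95% interval -0.35 to 0.11) and Rxra by -0.19 (-0.50 to 0.11). Ppara was at 73.2% of the 0.4% salt mean in HS_DT rats, a change of -0.34 ± 0.14 (limma adjusted p = 0.629).

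Plin2 was at 140.0% of the 0.4% salt mean in HS_DT rats, a change of 0.48 ± 0.15 (limma adjusted p = 0.477), and Angptl4 at 159%, a change of 0.65 ± 0.26 (limma adjusted p = 0.615). Within the higher series of rat numbers, HS_DT replicate 3 differed from the mean of the 0.4% salt rats by 0.36 for Plin2, 0.43 for Angptl4 and -0.35 for Ppara. Acsl1 differed by -0.24 (95% interval -0.54 to 0.06) and Hadh by -0.15 (-0.36 to 0.05).

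A wider list of 68 genes of the same pathways was read beside these, of which 66 were found and 57 tested. In HS_SCR against 0.4% salt rats 10 were called lower and 1 higher, or 19.3%, against 13.1% of all loci. The means of 41 of the 57 were lower, with a median log2 change of -0.26. Glycerol kinase, Gk, led the 11 called genes in size of change, at -1.72 ± 0.41 (limma adjusted p = 0.0309). Some genes that did not pass differed by more. Ppargc1a, the PPAR coactivator that drives mitochondrial genes, changed by -1.33 ± 0.29 (limma adjusted p = 0.0239). Acadsb, the dehydrogenase of short branched chains, changed by -1.29 ± 0.14 (limma adjusted p = 0.00566). The next of the called genes in size were the methylmalonyl-CoA mutase Mut at -1.04 ± 0.15 (limma adjusted p = 0.00764), Ppargc1b, a second coactivator of the same family, at -1.02 ± 0.17 (limma adjusted p = 0.0104), and Acad10, of the acyl-CoA dehydrogenase family, at -0.84 ± 0.17 (limma adjusted p = 0.0174).

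Ppargc1a had 28.4, 43.3 and 38.5 FPKM in HS_DT rats, 12.4, 18.2 and 31.0 FPKM in HS_SCR rats and 50.8, 55.1 and 43.9 FPKM in 0.4% salt rats. Acadsb had 22.1, 20.2 and 25.0 FPKM in HS_DT rats, 12.01, 11.9 and 15.5 FPKM in HS_SCR rats and 36.2, 36.4 and 28.1 FPKM in 0.4% salt rats. For both, each HS_SCR rat was below each 0.4% salt rat, and for Acadsb the HS_DT rats lay between, with no overlap among the 3 groups. Gk was also high in the libraries rich in proximal tubule markers, by 1.14 in HS_DT replicate 3 and 0.97 in 0.4% salt replicate 2 over their group mates. So were the omega-hydroxylase Cyp4a8 (1.89 in HS_DT replicate 3 and 1.60 in 0.4% salt replicate 2) and the very long chain acyl-CoA synthetase Slc27a2 (1.53 in HS_DT replicate 3 and 1.23 in 0.4% salt replicate 2).

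In HS_DT against HS_SCR rats none of the 57 passed (0.00697% of all loci did). At an unadjusted limma p under 0.05 there were 16 of the 57, against 2732 of all 14338 loci (19.1%). The nearest were Acadsb, with a log2 difference of 0.73 ± 0.14 (limma adjusted p = 0.0644), and Ppargc1b, with 0.74 ± 0.17 (limma adjusted p = 0.0833). Ppargc1a differed by 0.88 ± 0.29 (limma adjusted p = 0.166). In HS_DT against 0.4% salt rats none of the 57 passed (0% of all loci did). At an unadjusted limma p under 0.05 there were 5 of the 57, against 1074 of all 14338 loci (7.49%). The nearest were Acadsb, with a log2 difference of -0.56 ± 0.14 (limma adjusted p = 0.395), and Mut, with -0.49 ± 0.15 (limma adjusted p = 0.477). Ppargc1a differed by -0.45 ± 0.29 (limma adjusted p = 0.773).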

How the data were processed

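Trizol RNA from each rat went into libraries made on an Illumina NeoPrep system, per the labels' protocols. The table holds FPKM for 30315 loci, a unit the authors computed before they deposited it. The submitters' processing notes name Trim Galore 0.2.5, Cufflinks 2.2.1 and build rn5. Not given in the sources used here are the aligner, annotation, strand setting and scaling. Columns were matched to rats by the number in each title, and 1 further column that repeats HS_DT replicate 3 was not used.

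Values were analysed as log2(FPKM + 1), a pseudocount of 1, for the 14338 loci that averaged 1 FPKM or more. A single limma 3.58.1 trend fit (R 4.3.3) held the 3 groups, with two-sided tests, Benjamini-Hochberg adjustment over all tested loci and a threshold of 0.05 for a called change. The procedure was tested on simulated data. P-values measure the spread between rats of 1 group, 3 each. The depth is unknown, so no counting interval is given. No label says that a replicate number pairs rats, so the fit was unpaired.

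The genes, the lists and the tests were chosen with earlier results of these data known, and no list was tested as such. Each rat's value is printed for genes called in any comparison and for Ppara, Ppard, Rxra, Cd36, Cpt1a, Cpt2, Acadm, Acadvl, Hadha, Ehhadh, Plin2, Angptl4 and Pdk4. Of the wider list, up to 6 called genes with the largest change are named per comparison, or the 2 with the smallest p where none was called, with Ppargc1a (1 further gene of that rule is not reported here); Cyp4a8, Slc27a2 and the values by rat of Ppargc1a and Acadsb were chosen after their values were seen. Alternatives were other pseudocounts, filters, scalings and moderation, library weights, a block for the replicate number, a term for the series of rat numbers, the proximal tubule score as a covariate, a fit of 2 groups, and leaving out libraries. Windows at annotated starts came from RefSeq (GRCr8) by gene symbol.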

Additional observations from a re-analysis of the deposited data

How the results depend on the processing

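The count of genes called in HS_SCR against 0.4% salt rats, 5 of 30 (1 higher, 4 lower), depended most on the processing. With the share of all loci that passed in the same fit in brackets, it was 10 under quantile normalization (0 higher, 10 lower; 11%), 8 with library weights (28.0%), 2 with the series of rat numbers as a factor (9.20%), 1 in a fit of those 2 groups alone (3.25%), and 0 with the proximal tubule score in the fit or without the 2 libraries rich in proximal tubule markers, where 0% of all loci passed. Leaving out 1 library gave 1 (without 0.4% salt replicate 1, 3.12%, or 2, 2.42%) to 9 (without HS_SCR replicate 3, 36.2%), and 3 without HS_DT replicate 2 (7.5%) or HS_SCR replicate 2 (6.34%). Median-ratio rescaling gave 6, all lower (12.3%). The median change, -0.15, was -0.19 under median-ratio rescaling and -0.048 with the score, and ran from -0.18 to -0.12 with 1 library left out. In HS_DT against HS_SCR rats the count, 0, was 3 with library weights (10.4%), 1 with the series (2.94%) and 0 to 3 with 1 library left out, and the median, 0.08, was 0.16 under quantile normalization, 0.014 with library weights and 0.065 to 0.13 with 1 library left out. In HS_DT against 0.4% salt rats the count, 0, was 4 with library weights (Ehhadh and Acadm lower, Plin2 and Angptl4 higher; 12.6%) and 0 with any 1 library left out; the median, -0.07, ran from -0.11 to -0.04. The weights, 0.126 for HS_SCR replicate 3 to 6.46 for HS_DT replicate 2, came from an estimate that did not reach its convergence tolerance. No named change reversed its direction past the threshold. Across all settings run, 14 of the 30 were never called in HS_SCR against 0.4% salt rats, 26 in HS_DT against HS_SCR rats and 26 in HS_DT against 0.4% salt rats. With a minimum mean of 5 FPKM, Ppara and Echs1 were not tested. Fewer libraries or an added covariate lower the power of a fit; beyond that the cause was not tested.

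With the replicate number as a block, 4 of the 30 were called in HS_SCR against 0.4% salt rats (13.3% of all loci were), without Angptl4 (limma adjusted p = 0.0772), and 0 in each of the other comparisons. Deviations from the group means correlated between same-numbered libraries at -0.076 to 0.259 across genes (over 0.1 in 5 of 9 pairs), against -0.307 to 0.243 for different numbers (2 of 18), and 5 of 9 libraries correlated best with one of their own number. Since not every same-numbered pair was over 0.1, the rats were taken to share only a number; whether a number marks a shared batch was not tested.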
